A study of Saccharomyces cerevisiae with 2 samples.

Results

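The 10 genes described here encode proteins linked to gene silencing in budding yeast (Saccharomyces cerevisiae), called silencing factors here. They are the Sir proteins (SIR1, SIR2, SIR3 and SIR4), the SAS-I acetyltransferase (SAS2, SAS4 and SAS5), the DNA-binding protein Rap1 with its partner Rif1 (RAP1 and RIF1), and the Sir2 homologue Hst1 (HST1). A gene was taken as measured where the platform annotation gives a probe set that symbol alone, and where a gene has several such probe sets the brightest one stands for it. All 10 of 10 genes were found by this rule, out of 5656 genes measured on the arrays.

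The samples are 2 replicate cultures of 1 group, a strain whose histone H3 carries arginine in place of lysines 4, 36 and 79. Galactose medium kept a wild-type H3 gene on, and the cells then spent 18 hours in glucose, which turns that gene off. Both cultures therefore share the mutant H3, the repressed wild-type H3 gene, selective medium and a harvest at an OD600 of 0.5 to 0.7. Total RNA (about 20 µg) was labelled with biotin and hybridised to Affymetrix expression arrays, 1 array a culture. Earlier time points and wild-type cultures were not analysed here. The values are thus levels in the mutant at 18 hours with the spread between its cultures, and no change caused by the mutation can be read from them. In total RNA of a whole culture, fewer cells that express a gene and less RNA per cell cannot be told apart.

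As background, silent chromatin in yeast covers the silent mating-type cassettes, the telomeres and, in another form, the ribosomal DNA. Rap1 and other proteins bound at silencers and telomere repeats recruit Sir4 and its partners. Sir2 then removes acetyl groups from the tail of histone H4, and Sir3 and Sir4 bind the deacetylated nucleosomes and spread along them. SAS-I does the opposite work outside silent regions by acetylating the same H4 lysine, which limits the spread of the Sir proteins. Methylation by Dot1 of one of the lysines mutated here is known to hinder the binding of Sir3 to nucleosomes.

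All values are MAS5 signals, the linear output of the Affymetrix array algorithm in arbitrary units. Signals of different probe sets are not on a common scale, so the levels below are not ranked between genes. Over 9335 probe sets the median was 25.5 for replicate 1 and 25.7 for replicate 2. The log2 difference between the arrays, replicate 2 minus replicate 1, had a median of 0.03 over all 5656 genes. Across those genes the log2 signals of the arrays had a Pearson r of 0.990, which describes genes and not independent replicates. Actin control probe sets, which show RNA integrity, had a 3′ to 5′ signal ratio of 1.61 on replicate 1 and 1.57 on replicate 2. The brightest probe set for histone H3, shared by HHT1 and HHT2, gave 1360 on replicate 1 and 1261 on replicate 2 and cannot tell mutant from wild-type transcripts.

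All 10 silencing factor genes gave signals above those of foreign probe sets on both arrays, and none of the 10 differed by as much as 1.5-fold between the cultures. Foreign probe sets are 13 controls for mouse genes or for the antisense strand of bacterial genes, and their 95th percentile was 1.86 on replicate 1 and 1.69 on replicate 2. That level was exceeded on both arrays by 98.7% of all genes, so passing it says little about expression. Of all genes, 2.16% were over 1.5-fold apart, and a count of 0 among 10 is near that share. By brightest probe sets, the members' fold between the arrays ran from 1.04 for RAP1 to 1.17 for HST1. The median was 1.07, against a median of 1.08 over all genes.

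**Figure D1:**
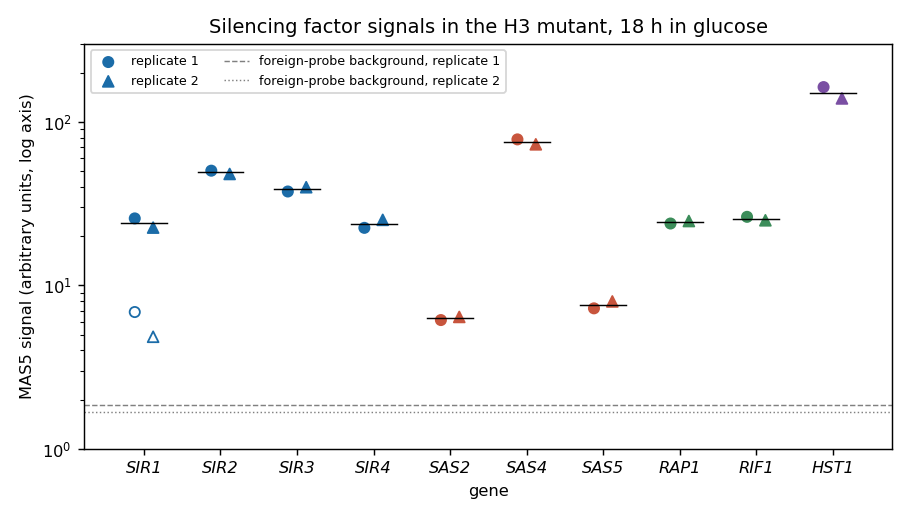
Signal of each silencing factor gene (arbitrary units, log axis) on replicate 1 (circles) and replicate 2 (triangles), with the mean as a bar, coloured by role (blue Sir proteins, red SAS-I, green Rap1 and Rif1, purple Hst1). Open symbols are the other SIR1 probe set, and the lines near the bottom mark the foreign-probe level of each array (1.86 and 1.69), which every point exceeds.

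Sir2, Sir3 and Sir4 form the silencing complex itself. SIR1 (YKR101W, chromosome XI), whose product binds the origin recognition complex at silencers and helps to establish silencing, gave 25.7 on replicate 1 and 22.6 on replicate 2. Its mean was 24.1 ± 2.21 (SD, n = 2), and its log2 difference was -0.19. SIR1 is also the one gene of the 10 with another probe set, and that one gave 6.87 on replicate 1 and 4.85 on replicate 2, a log2 difference of -0.50. Both SIR1 probe sets were lower on replicate 2, but the dimmer one moved by 1.42-fold and the brighter one by 1.14-fold. The dimmer probe set lies where signals are less precise: of the 272 genes with a signal from 4 to 8, 95% lay within 1.52-fold between the arrays. Its difference was 1.69 times the SD of those genes, and its coefficient of variation was 24.4%.

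SIR2 (YDL042C, chromosome IV) encodes the NAD-dependent histone deacetylase, which acts both with the other Sir proteins and in the nucleolus. It gave 50.3 on replicate 1 and 48.0 on replicate 2, a mean of 49.2 ± 1.61 (SD, n = 2). The log2 difference of -0.07 was 0.387 of the SD found among the 1443 genes with a signal from 32 to 64. SIR3 (YLR442C, chromosome XII) encodes the nucleosome-binding protein of the complex. It gave 37.5 on replicate 1 and 39.9 on replicate 2, a mean of 38.7 ± 1.65 (SD, n = 2) and a log2 difference of 0.09. SIR4 (YDR227W, chromosome IV) encodes the scaffold that joins Sir2, Sir3 and Rap1. It gave 22.5 on replicate 1 and 25.2 on replicate 2, a mean of 23.8 ± 1.89 (SD, n = 2) and a log2 difference of 0.16.

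The Sir genes therefore did not move together between the cultures. SIR1 and SIR2 were lower and SIR3 and SIR4 higher on replicate 2, and the median over the 4 genes was 0.01 on the log2 scale. SIR1 and SIR4 had the wider spread of the 4, with coefficients of variation of 9.16% and 7.95%. SIR2 and SIR3 had 3.28% and 4.25%. By brightest probe sets, each of the 4 differences was smaller than 1 SD of the genes of like signal.

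SAS-I is a complex of 3 proteins, and its genes lie in signal ranges that differ in the spread among genes. Their own coefficients of variation were 3.11% for SAS2, 6.87% for SAS5 and 4.92% for SAS4. SAS2 (YMR127C, chromosome XIII), which encodes the catalytic MYST-family acetyltransferase, gave 6.13 on replicate 1 and 6.41 on replicate 2, a mean of 6.27 ± 0.195 (SD, n = 2). SAS5 (YOR213C, chromosome XV), for another subunit, gave 7.23 on replicate 1 and 7.97 on replicate 2, a mean of 7.60 ± 0.522 (SD, n = 2). The signals of SAS2 and SAS5 both lie in the range from 4 to 8, where the SD of the log2 difference was 0.30 over 272 genes. Their own log2 differences, 0.06 for SAS2 and 0.14 for SAS5, were 0.214 and 0.472 of that SD. SAS4 (YDR181C, chromosome IV), which encodes the subunit needed for the activity of Sas2, gave 78.2 on replicate 1 and 73.0 on replicate 2, a mean of 75.6 ± 3.72 (SD, n = 2). Its log2 difference was -0.10, opposite in sign to those of SAS2 and SAS5.

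A difference between the SAS4 signal and those of SAS2 and SAS5 does not show that the subunits are made in unequal amounts, because the probe sets differ in affinity. For SAS2 and SAS5 the limit is the dim signal. In their signal range a difference between 2 arrays has to pass 1.52-fold to lie outside 95% of genes, against 1.21-fold in the range from 64 to 128 that holds SAS4.

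RAP1 (YNL216W, chromosome XIV) encodes an essential protein that binds silencers, telomere repeats and the promoters of ribosomal protein and glycolytic genes. It gave 23.9 on replicate 1 and 24.8 on replicate 2, a mean of 24.3 ± 0.599 (SD, n = 2). Its coefficient of variation, 2.46%, was the smallest of the 10 genes. RIF1 (YBR275C, chromosome II) encodes a Rap1-bound protein that limits telomere length and competes with Sir proteins for Rap1. It gave 26.3 on replicate 1 and 25.0 on replicate 2, a mean of 25.6 ± 0.885 (SD, n = 2). The log2 differences were 0.05 for RAP1 and -0.07 for RIF1, and both were under 1 SD (0.21) of the 1296 genes with signals from 16 to 32.

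HST1 (YOL068C, chromosome XV) encodes a deacetylase closely related to Sir2, which works with Sum1 and Rfm1 to repress mid-sporulation genes and genes of NAD synthesis. It gave 163.5 on replicate 1 and 139.3 on replicate 2, a mean of 151.4 ± 17.1 (SD, n = 2). By brightest probe sets, HST1 had the widest relative spread of the 10, with a coefficient of variation of 11.3% and a log2 difference of -0.23. That difference was 1.56 times the SD (0.15) of the 531 genes with signals from 128 to 256, and its 1.17-fold lay within the 1.21-fold that held 95% of them. Among the brightest probe sets, HST1 was the 1 gene of the 10 whose difference exceeded 1 SD of the genes of like signal. Of all genes with a signal of at least 1 and under 2048, 28.2% did. The dimmer SIR1 probe set, at 1.69 times the SD of its signal range, did so too. SIR2, the homologue of HST1, differed by 1.05-fold in the same direction as HST1. Probe sequences were not used here, so cross-hybridisation between HST1 and SIR2 transcripts was not tested.

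**Figure D2:**
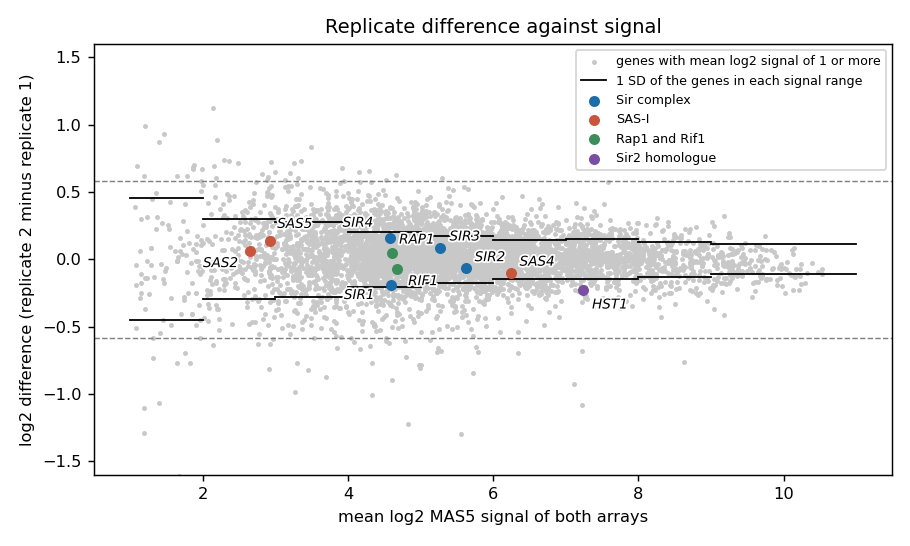
Log2 difference between the arrays (replicate 2 minus replicate 1) against mean log2 signal for genes with a mean log2 signal of 1 or more (grey), with the silencing factors coloured by role. Black steps are 1 SD of the genes in each signal range, dashed lines mark 1.5-fold, and 3 genes lie outside the axis; HST1 is the one coloured point beyond its black step, and SAS2 and SAS5 sit where the steps are wider than for the other 8 genes.

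Taken by direction, 5 of the 10 genes were higher on replicate 2 (SIR3, SIR4, SAS2, SAS5 and RAP1) and 5 lower (SIR1, SIR2, SAS4, RIF1 and HST1), where 56.4% of all genes were higher. The median log2 difference of the members was -0.01, against 0.03 over all genes. Neither the Sir genes, nor the SAS genes, nor RAP1 with RIF1 lay all on one side of 0. The SAS genes had a median of 0.06 over 3 genes and RAP1 with RIF1 one of -0.01 over 2 genes. The 10 genes lie on 7 chromosomes, with SIR2, SIR4 and SAS4 on chromosome IV and SAS5 and HST1 on chromosome XV, and genes on one chromosome differed in opposite directions in both cases.

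Probe sets with numbers near those of some members leaned lower or higher on replicate 2, and these values are given beside the members. They were computed around the members only. Of all genes, 43.6% were lower on replicate 2, and genes at or above the median signal had a median log2 difference of 0.02. Over the 100 brighter probe sets nearest in number, 50 on either side, the median log2 difference was -0.07 around SIR1, with 64 of the 100 lower on replicate 2. It was -0.05 around SIR3, with 66 of 100 lower, although SIR3 itself was higher. It was -0.02 around RIF1, with 56 of 100 lower. Whether the lower SIR1 and RIF1 signals share a source with these neighbours was not tested. Around HST1 it was 0.06, with 22 of 100 lower, so the lower HST1 signal ran against its neighbours in number. Around the other 6 genes the median lay between 0.01 (SIR2) and 0.07 (SAS5). With these medians subtracted, a step chosen after the data were seen, the log2 difference became -0.12 for SIR1, 0.14 for SIR3 and -0.29 for HST1.

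Each member's difference was also computed under 7 settings, which were the values as deposited, median centring, quantile normalization, loess, an offset of 16, averaging all probe sets of a gene, and the local median by probe set number. None of the 10 genes changed sign or passed 1.5-fold. Only quantile normalization, loess and the local median could have shown this. Median centring moved every gene by 0.015 on the log2 scale, less than the smallest member difference (0.05 for RAP1). An offset cannot turn a sign or raise a fold, and averaging probe sets touches SIR1 alone. SAS2 came nearest to 0, with a lowest log2 difference of 0.01, and RAP1 had a lowest value of 0.02. HST1 ran from -0.29 to -0.21 and SIR1 from -0.25 to -0.11. SIR4 ran from 0.10 to 0.16. Differences this small still have no test, because each side is 1 array.

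**Figure D3:**
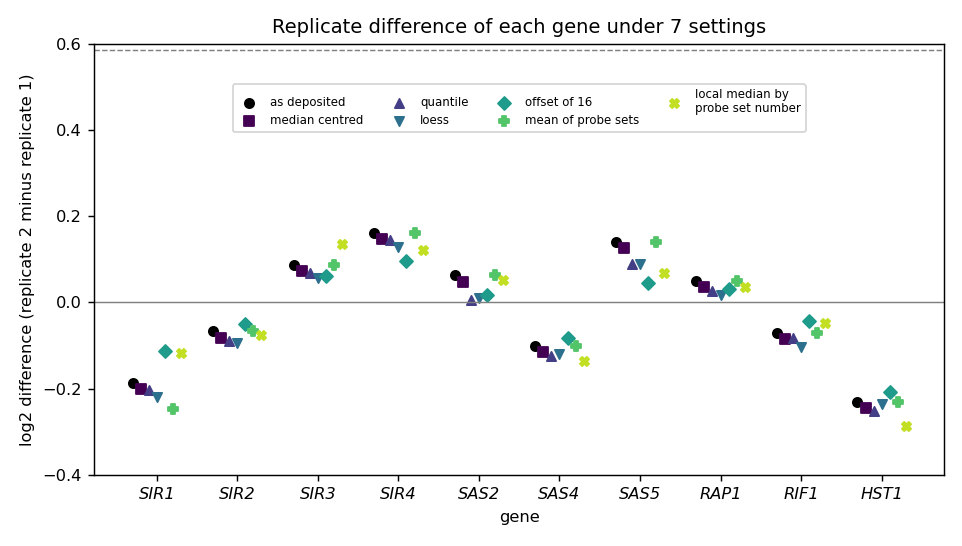
Log2 difference between the arrays (replicate 2 minus replicate 1) for each silencing factor gene under 7 settings, from the deposited values (black circles) to the local median by probe set number (yellow crosses). Every gene keeps the same side of 0, and HST1 has values from -0.29 to -0.21. The dashed line marks 1.5-fold on the upper side only, and the points above 0 lie below it.

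Factors that work with these proteins were measured on the same arrays. In 6 lists of silencing partners, silencer-binding proteins, histone deposition factors, telomere proteins, nucleolar silencing proteins and MYST-family paralogues of Sas2, all 48 of 48 genes were measured. Of these 48, 0 were over 1.5-fold apart, against 2.16% of all genes, and 28 were higher and 20 lower on replicate 2, where 56.4% of all genes were higher. Both counts are near the shares over all genes. Sir2 and Hst1 need NAD, and PNC1, the nicotinamidase that clears an inhibitor of Sir2, gave 693.2 on replicate 1 and 638.7 on replicate 2. NPT1, for the enzyme of NAD salvage that follows it, gave 87.9 on replicate 1 and 102.3 on replicate 2. NET1, which anchors Sir2 in the nucleolus, gave 144.9 on replicate 1 and 142.9 on replicate 2.

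Among the paralogues of the members, ORC1, the origin recognition subunit related to Sir3, gave 49.3 on replicate 1 and 40.8 on replicate 2, lower where SIR3 was higher. ESA1, the essential MYST acetyltransferase related to Sas2, gave 36.9 on replicate 1 and 42.3 on replicate 2. SAS3, another relative, gave 24.0 on replicate 1 and 19.8 on replicate 2. Of the 7 silencer-binding genes, the origin recognition subunits and ABF1, 5 gave less signal on replicate 2, where 43.6% of all genes did. The median of the 7 was -0.13 on the log2 scale against 0.03 over all genes. Among the 6 lists, this was the median furthest from 0, and the list was singled out after the values were seen. Its 7 log2 differences lay on both sides of 0, from -0.39 to 0.27. RAP1, whose product also binds silencers, is not in this list and had a log2 difference of 0.05. With 1 array on each side the lower signal of this list has no test.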

How the data were processed

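Each array holds 9335 probe sets, of which the platform annotation gives 1 gene symbol to 6504, several to 328 and none to 2503. Gene identifiers linked all 6504 to RefSeq's table for assembly R64. The deposited intensity values are linear MAS5 signals, per the submitters' processing notes. The sources used here give no version, settings or scaling target for MAS5. No build is named, so no coordinates are given.

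Signals were taken to log2 as deposited with no offset. Spread was described by the SD of the log2 difference among genes in signal ranges. These double in width up to a signal of 512, and the last runs from 512 to 2048. The 10 genes, the other lists and the thresholds were chosen with earlier results of these data known. Beyond the 10, the naming rule took from each list the 2 brightest genes, any gene over 1.5-fold apart, and all genes of lists of 4 or fewer, and values are given here for part of those. With 1 group of 2 arrays no test was run and no p-value is given. The number of arrays limits the precision. Replicates were separate cultures, per the design text. The procedure was tested on simulated data. Alternatives were median centring, quantile normalization, loess (span 0.3), an offset of 16, the mean of probe sets, other thresholds and single arrays. Python 3.11.15, pandas 2.3.3 and statsmodels 0.14.6 were used.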

Additional observations from a re-analysis of the deposited data

How the results depend on the processing

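The count of silencing factor genes over 1.5-fold apart was 0 under the alternatives that could raise it (quantile normalization, loess and local medians). Median centring gave 0 as well, but its shift of 0.015 on the log2 scale was too small to raise the count. The other 4 alternatives (2-fold, the brighter genes, the offset and the mean of probe sets) gave 0 too, but the first 3 could not have given more and the last can alter SIR1 alone. The members' median log2 difference, -0.01, ran from -0.08 over the 4 genes at or above the median signal (SIR2, SIR3, SAS4 and HST1) to -0.01 after subtracting local medians and was below 0 in all of them. All 10 genes were also above the highest foreign probe set. The mean of probe sets, which alters SIR1 alone, and each array alone, where the count could not fall, gave 10 as well. With the 95th percentile of 11 mid-sporulation genes as the threshold (43.6 for replicate 1 and 45.3 for replicate 2), 3 of the 10 passed (SIR2, SAS4 and HST1), as did 44.1% of all genes; such a threshold compares probe sets of unlike affinity. The level of SIR1 became 15.0 with the mean of its probe sets. After quantile normalization the 10 levels moved by no more than 1 SD of the replicates. No paired analysis was possible because both arrays belong to the same group. Dim signal limits SAS2, SAS5 and the second SIR1 probe set.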

Other observations

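The silent mating-type cassettes, which the Sir proteins keep off, are read by 7 probe sets on these arrays, of which 3 carry the symbol HMRA1 alone and 4 are shared by cassette and MAT genes. Silent copies and the expressed copy at MAT share sequence, so these probe sets are not read here as silent copies alone. The brightest HMRA1 probe set gave 91.2 on replicate 1 and 83.3 on replicate 2. The other HMRA1 probe sets gave 12.6 and 4.67 on replicate 1 and 6.77 and 3.13 on replicate 2. One probe set shared by HMRA2, MATALPHA2 and HMLALPHA2 gave 40.5 on replicate 1 and 10.9 on replicate 2, a 3.70-fold difference that was singled out after its values were seen. The other probe set for the same genes gave 49.96 on replicate 1 and 54.98 on replicate 2, so the 2 probe sets for these genes differ in the direction of the difference. Of the probe sets shared by MATALPHA1 and HMLALPHA1, one gave 16.1 on replicate 1 and 17.5 on replicate 2, and the other was below the foreign-probe background on both arrays. Of the 7 cassette probe sets, dim and shared ones included, 3 were over 1.5-fold apart. They were the 3.70-fold one, the HMRA1 probe set at 12.6 and 6.77 (1.86-fold) and the one below background (1.59-fold). The 2.16% of all genes over 1.5-fold apart counts only the brightest single-symbol probe set of each gene, so the 2 shares are not alike. By that rule HMRA1 was the 1 cassette gene measured, and it differed by 1.09-fold. The cause of these differences was not tested.

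Hst1 with Sum1 represses genes of NAD synthesis and of mid-sporulation. Among 6 genes of NAD synthesis and uptake, 0 were over 1.5-fold apart, against 2.16% of all genes, and 4 were lower on replicate 2, against 43.6% of all genes. Counts this small describe these genes only. BNA1 gave 112.0 on replicate 1 and 112.3 on replicate 2, and BNA2 gave 71.7 on replicate 1 and 69.2 on replicate 2. These are the 2 brightest of the 6, whose log2 differences ran from -0.44 to 0.08. Among 11 mid-sporulation genes, 0 were over 1.5-fold apart, against 2.16% of all genes. Of the 11, 7 gave more signal on replicate 2, where 56.4% of all genes did, and both counts are near those shares. The median of the 11 was 0.11 on the log2 scale against 0.03 over all genes, with no test.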
